A study of Mus musculus with 12 samples.

Results

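Genes of Schwann cells and nerve were followed through RNA-seq of mouse scars, namely *Sox10*, *Ngfr*, *Mbp*, *Pmp22*, *Prx* and *S100b*. They were taken by symbol, 6 of the 35976 genes listed in each of the 12 count files, and all 6 were among the 18853 genes tested. The scars came from the back skin of male mice aged 8 to 12 weeks, 3 scars per group, and a part of each scar was used for RNA. *Tem1*, listed in the files under the symbol *Cd248*, is intact in the *Tem1*WT/WT groups. In the *Tem1*lacZ/lacZ groups its only exon is replaced by the *lacZ* reporter in every cell of the body, on a C57BL/6J background reached by 10 generations of backcrossing. A 1.5-cm incision was made in all mice, and all carried a plastic device from day 6 after wounding. Traction scars were stretched with it, 1 mm/day to 8 mm in all, whereas sham scars carried it without stretching. The names used below are WT sham, WT traction, lacZ sham and lacZ traction. The numbers 1 to 3 name the libraries of a group, and the labels state no pairing between groups.

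Schwann cells are the glia of peripheral nerve. Some of them wrap a stretch of a single axon in compact myelin, others hold bundles of thin axons without myelin, and the latter kind is common in skin. After injury, Schwann cells can lower their myelin genes and take on a repair state in which growth factors and the neurotrophin receptor encoded by *Ngfr* are raised. *Sox10* encodes the transcription factor that holds the identity of these cells and of melanocytes. *Mbp*, *Pmp22* and *Prx* encode proteins of the myelin sheath, of which PMP22 is also made by fibroblasts and other cells, and S100B is a calcium-binding protein of Schwann cells that adipocytes and melanocytes make as well. The messenger RNA of nerve fibres lies mostly in the cell bodies of distant ganglia, so a scar holds little of it.

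The promoters are shown as background on the sequences, and because the count of *Pmp22* pools transcripts from several starts. Their relation to the levels below was not tested. RefSeq windows of 250 bases upstream of the start (build GRCm38.p6) were available for 4 of the 6 genes, and *Sox10* and *Mbp* had no entry. Capitals mark CCAAT boxes (CCAAT or ATTGG), GC boxes (GGGCGG or CCGCCC) and, in *Prx*, the EGR motif (CCCACGC), all searched on both strands and written in the direction of the gene. Bases that an annotation places in an exon were left off the end next to the start.
Ngfr: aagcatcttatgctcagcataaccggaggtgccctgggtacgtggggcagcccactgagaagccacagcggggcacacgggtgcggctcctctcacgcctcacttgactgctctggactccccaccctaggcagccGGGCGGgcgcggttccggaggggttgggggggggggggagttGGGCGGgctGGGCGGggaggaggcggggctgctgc
Prx: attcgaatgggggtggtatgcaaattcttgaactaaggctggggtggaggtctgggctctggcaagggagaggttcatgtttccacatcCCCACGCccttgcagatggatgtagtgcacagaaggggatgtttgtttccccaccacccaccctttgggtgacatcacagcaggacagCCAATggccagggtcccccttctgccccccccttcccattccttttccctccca
S100b: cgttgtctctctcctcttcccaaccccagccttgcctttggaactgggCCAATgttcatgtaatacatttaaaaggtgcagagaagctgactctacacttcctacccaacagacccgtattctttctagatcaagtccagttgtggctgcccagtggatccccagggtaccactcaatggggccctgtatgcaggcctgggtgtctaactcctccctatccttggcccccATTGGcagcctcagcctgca
Pmp22, the first start: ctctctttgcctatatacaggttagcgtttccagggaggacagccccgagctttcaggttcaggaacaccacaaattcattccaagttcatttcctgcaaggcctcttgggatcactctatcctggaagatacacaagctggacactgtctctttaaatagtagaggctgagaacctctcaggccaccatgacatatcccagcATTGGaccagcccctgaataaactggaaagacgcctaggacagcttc
Pmp22, the second start: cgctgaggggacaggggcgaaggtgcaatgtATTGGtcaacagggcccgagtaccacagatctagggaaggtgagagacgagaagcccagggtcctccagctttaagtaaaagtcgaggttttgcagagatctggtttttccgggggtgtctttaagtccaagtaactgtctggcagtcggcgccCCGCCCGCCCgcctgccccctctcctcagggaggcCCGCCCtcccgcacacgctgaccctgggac

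In order, these lie at chr11:95587736-95587948 on the minus strand, chr7:27499074-27499304, chr10:76253586-76253835, chr11:63128732-63128981 and chr11:63131207-63131456, the last 4 on the plus strand. The *Prx* window held 1 EGR motif (GCGTGGG or GCGGGGG), which EGR2, the activator of myelin genes, can bind. Of all 32851 windows of this length, 13.0% held one. The *Ngfr* window held 4 GC boxes, 3 of them in the bases shown, and the later *Pmp22* window shown held 3, of which 2 overlap. *Pmp22* has 4 such windows in all. The other two start further along the gene, and of these the last holds 3 GC boxes. A GC box was found in 32.7% of all windows. A CCAAT box, present in 33.8% of all windows, was found in *S100b*, *Prx* and both *Pmp22* windows shown. The core of the SOX motif (ACAAAG or ACAATG) was in 25.2% of all windows and in none of those of the 4 genes, and TATAAA was in 12.4% and likewise in none of theirs. Such matches describe the letters only.

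Library totals were 41536788 to 64644293 counts. *Cd248* had 3883 to 16413 counts in the WT libraries and 0 to 13 in the lacZ libraries. Levels are given in CPM normalized by the TMM method (counts scaled to a common library size). The 4 groups shared a single edgeR model, comparisons were tested by quasi-likelihood, and p-values were adjusted over all genes tested by the method of Benjamini and Hochberg. Neither the labels nor the files name a batch. In bulk tissue, fewer cells of a type and less RNA per cell cannot be told apart.

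All 6 genes were detected in every library. Scaled to exonic length, *Pmp22* was by far the highest, with a median level of 69.8 CPM per kb over the 12 libraries. *Mbp* followed with a median level of 3.83 CPM per kb, and *Ngfr*, *S100b*, *Sox10* and *Prx* lay close together at 1.40, 1.39, 1.24 and 1.10 CPM per kb. Among genes of the same cells, *Egr2* and *Erbb3* had median levels of 15.4 and 8.51 CPM per kb, so *Pmp22* stood far above them as well. *S100b* was the most variable of the 6, with a 6.31-fold range between libraries, and *Pmp22* the least, with a 1.68-fold range.

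**Figure D1:**
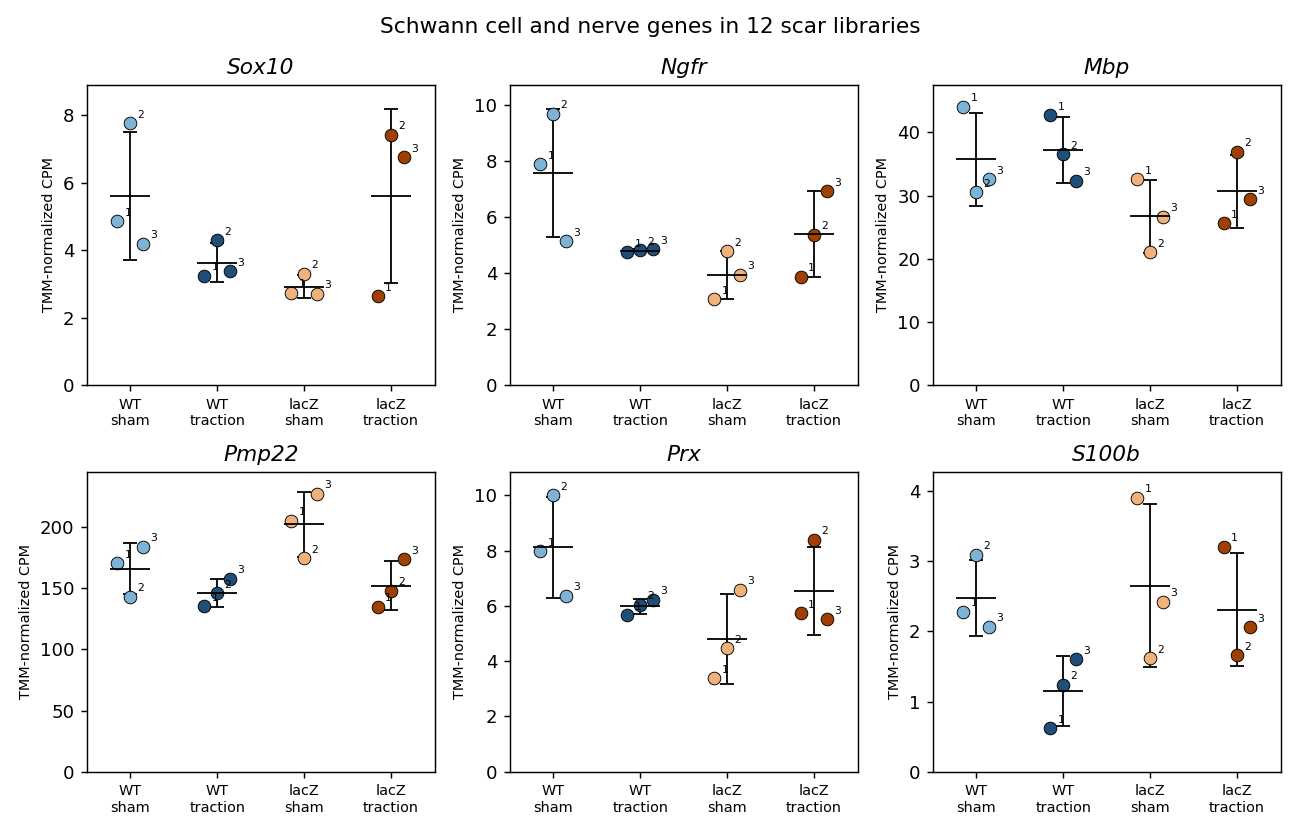
Levels of the 6 genes in TMM-normalized CPM (vertical axes, from 0) in each of the 12 libraries, by group; points are libraries with their numbers, and bars are the mean and SD of 3. *Sox10*, *Ngfr* and *Prx* have their highest mean in WT sham and their lowest in lacZ sham, while the 3 WT traction libraries hold the lowest *S100b* values, 0.619 to 1.60 CPM.

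*Sox10* (Entrez 20665, chr15:79154913-79164490, minus strand) was at 4.86, 7.76 and 4.19 CPM in the WT sham libraries and at 3.24, 4.28 and 3.37 CPM in the WT traction libraries. In lacZ mice it was at 2.74, 3.30 and 2.70 CPM in the sham libraries and at 2.64, 7.42 and 6.75 CPM in the traction libraries. The lacZ sham libraries were all below the WT sham libraries, and lacZ traction was split, with library 1 the lowest of all 12 and libraries 2 and 3 among the 3 highest. The group means ran from 5.61 ± 1.90 CPM in WT sham and 5.60 ± 2.59 CPM in lacZ traction through 3.63 ± 0.57 CPM in WT traction to 2.91 ± 0.334 CPM in lacZ sham (SD, n = 3 each). Only the last step exceeded the larger of the 2 SDs.

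*Ngfr* (Entrez 18053, chr11:95568818-95587698, minus strand), the receptor shared by the neurotrophins, was at 7.88, 9.69 and 5.14 CPM in WT sham and at 4.74, 4.81 and 4.85 CPM in WT traction. Its levels were 3.07, 4.77 and 3.94 CPM in lacZ sham and 3.87, 5.36 and 6.92 CPM in lacZ traction. Every WT sham library was above every WT traction library and above every lacZ sham library, and the lacZ groups overlapped. The group means, from high to low, were 7.57 ± 2.29 CPM in WT sham, 5.38 ± 1.53 CPM in lacZ traction, 4.80 ± 0.0583 CPM in WT traction and 3.93 ± 0.85 CPM in lacZ sham (SD, n = 3 each). As with *Sox10*, only the step from WT traction to lacZ sham exceeded the larger SD.

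Periaxin, encoded by *Prx* (Entrez 19153, chr7:27499305-27520041, plus strand), ties the myelinating Schwann cell's membrane to its surrounding matrix. *Prx* was at 7.97, 9.996 and 6.37 CPM in WT sham, 5.66, 6.05 and 6.22 CPM in WT traction, 3.38, 4.46 and 6.58 CPM in lacZ sham and 5.74, 8.39 and 5.52 CPM in lacZ traction. The WT sham libraries were all above the WT traction libraries, by a narrow gap, and the other pairs of groups overlapped. No neighbouring means in its order, which was the same as for *Sox10* and *Ngfr*, differed by more than the larger SD. An antisense transcript, *Gm15541*, shares 300 exonic bases, or 5.38%, with *Prx*, and the strand setting of the counting is not given in the sources used here, so reads in this stretch cannot be assigned to either with certainty.

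*Mbp* (Entrez 17196, chr18:82475091-82585637, plus strand) encodes the protein that holds the inner faces of compact myelin together, and the same gene gives the longer golli transcripts, which immune cells also make. Its count pools them. *Mbp* was at 44.1, 30.5 and 32.6 CPM in WT sham, 42.7, 36.5 and 32.4 CPM in WT traction, 32.6, 21.0 and 26.7 CPM in lacZ sham and 25.6, 37.0 and 29.5 CPM in lacZ traction. Every pair of groups overlapped, and the means, 37.2 ± 5.21 CPM in WT traction, 35.7 ± 7.32 CPM in WT sham, 30.7 ± 5.78 CPM in lacZ traction and 26.8 ± 5.77 CPM in lacZ sham (SD, n = 3 each), differed from their neighbours by less than the larger SD. The highest *Mbp* levels were in library 1 of WT sham and library 1 of WT traction.

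*Pmp22* (Entrez 18858, chr11:63128982-63159547, plus strand), a membrane protein of compact myelin and a growth arrest gene of fibroblasts, was at 171, 143 and 184 CPM in WT sham and at 135, 146 and 158 CPM in WT traction. In lacZ mice it was at 205, 175 and 227 CPM in sham and at 135, 148 and 174 CPM in traction. All lacZ sham libraries were above all lacZ traction libraries, though the nearest values were 175 and 174 CPM. The means, 202 ± 26.4 CPM in lacZ sham, 166 ± 20.9 CPM in WT sham, 152 ± 19.7 CPM in lacZ traction and 146 ± 11.3 CPM in WT traction (SD, n = 3 each), differed beyond the larger SD only at the step from lacZ sham to WT sham.

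*S100b* (Entrez 20203, chr10:76253836-76261319, plus strand) had the fewest counts of the 6, 26 to 213 per library. It was at 2.28, 3.09 and 2.06 CPM in WT sham and at 0.619, 1.24 and 1.60 CPM in WT traction. Its levels were 3.90, 1.61 and 2.42 CPM in lacZ sham and 3.20, 1.66 and 2.06 CPM in lacZ traction. Every WT traction library was below every library of the other 3 groups. The means were 2.65 ± 1.16 CPM in lacZ sham, 2.48 ± 0.541 CPM in WT sham, 2.31 ± 0.802 CPM in lacZ traction and 1.15 ± 0.497 CPM in WT traction (SD, n = 3 each), and only the step down to WT traction exceeded the larger SD.

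In WT mice, traction went with lower levels of 5 of the 6 genes (median log2 fold change -0.53, against -0.01 for all genes tested). No change passed the test. *S100b* had the largest difference, a log2 fold change of -1.10 (SE 0.43, adjusted p = 0.111), which is 46.6% of its sham level. The log2 fold change was -0.66 for *Ngfr* (SE 0.29, adjusted p = 0.146), -0.63 for *Sox10* (SE 0.37, adjusted p = 0.265) and -0.44 for *Prx* (SE 0.28, adjusted p = 0.300). The myelin genes *Pmp22* and *Mbp* had log2 fold changes of -0.18 (SE 0.16) and 0.06 (SE 0.21), the latter -0.0581 with upper quartile scaling. Called by edgeR were 0 of the 6 genes, against 9.15% of all genes tested. At an unadjusted p under 0.05 were 2 of the 6, against 31.4% of all genes. DESeq2 and limma-voom also called 0, with 2 and 1 at that level. The groups did not overlap for 3 of the 6 genes, against 35.7% of all genes tested. Without WT sham library 2, the highest for *Sox10*, *Ngfr* and *Prx*, the log2 fold change of *Sox10* was -0.30, that of *Ngfr* -0.42 and that of *Prx* -0.24. The background rests on single libraries as well, since without WT sham library 1 or 2 edgeR called 0 of all genes in this comparison.

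In lacZ mice, 4 of the 6 genes were higher and 2 lower under traction, with a median log2 fold change of 0.32 against -0.01 for all genes tested. *Sox10* had the largest difference, at 0.94 (SE 0.37, unadjusted p = 0.0268, adjusted p = 0.598), a fitted level 1.92 times that of sham. *Pmp22* had a log2 fold change of -0.41 (SE 0.16, unadjusted p = 0.0247, adjusted p = 0.598). *Ngfr*, *Prx*, *Mbp* and *S100b* had log2 fold changes of 0.46, 0.45, 0.20 and -0.20. edgeR called 0 of the 6, as it did 0% of all genes, and 2 had an unadjusted p under 0.05, against 8.12% of all genes. DESeq2 and limma-voom called 0 of the 6, with 2 and 3 at that level. For 1 of the 6 genes the groups did not overlap, against 12.9% of all genes tested. The value of *Sox10* was 0.69 without lacZ traction library 2 and 1.33 without library 1. Without library 2 the values of *Prx* and *Mbp* were 0.23 and 0.0457, and without library 3 that of *Ngfr* was 0.22. *S100b* turned to 0.22 without lacZ sham library 1.

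Between the sham groups, 4 of the 6 genes were lower in lacZ mice (median log2 fold change -0.59, against -0.01 for all genes tested). *Ngfr* was at 51.9% of its WT sham level (log2 fold change -0.95, SE 0.29, unadjusted p = 0.00726, adjusted p = 0.409). *Sox10* was at 52.0% (log2 fold change -0.94, SE 0.37, adjusted p = 0.409) and *Prx* at 59.3% (log2 fold change -0.75, SE 0.28, adjusted p = 0.409). *Mbp* had a log2 fold change of -0.42, and *Pmp22* and *S100b* had 0.29 and 0.09. By edgeR 0 of the 6 were called, against 0.0106% of all genes tested. An unadjusted p under 0.05 was found for 3 of the 6, against 11.7% of all genes. DESeq2 and limma-voom called 0, with 3 and 4 at that level. The groups did not overlap for 2 of the 6 genes, against 26.8% of all genes tested. Without WT sham library 2 the value of *Sox10* was -0.61 and 1 of the 6 genes had an unadjusted p under 0.05. Without WT sham library 1 the value of *Mbp* was -0.24.

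Under traction, 5 of the 6 genes were higher in lacZ than in WT mice (median log2 fold change 0.15, against 0.01 for all genes tested). *S100b* had the largest value, 0.99 (SE 0.43, unadjusted p = 0.0421, adjusted p = 0.177), or 1.99 times the WT level. The log2 fold changes were 0.63 for *Sox10*, 0.17 for *Ngfr*, 0.13 for *Prx*, 0.06 for *Pmp22* and -0.28 for *Mbp*. edgeR called 0 of the 6, against 0.106% of all genes tested. An unadjusted p under 0.05 was found for 1 of the 6, against 26.1% of all genes. DESeq2 and limma-voom called 0, with 1 and 0 at that level. For 1 of the 6 genes the groups did not overlap, against 26.6% of all genes tested. The value of *Sox10* was 0.38 without lacZ traction library 2 and 1.00 without library 1.

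**Figure D2:**
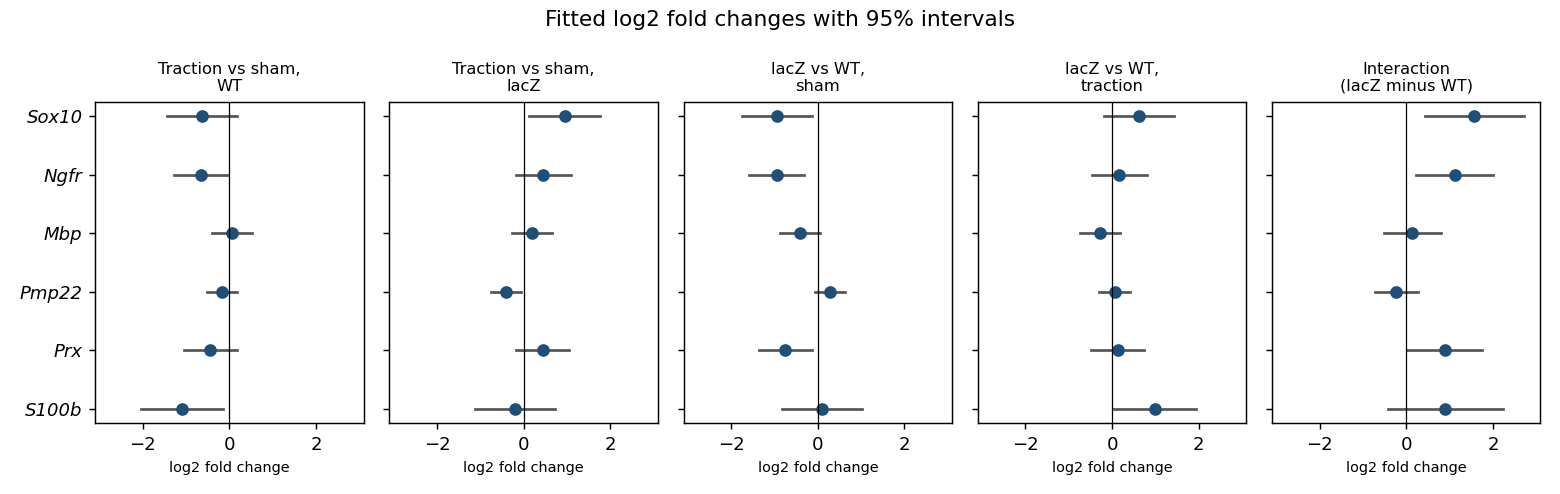
Fitted log2 fold changes of the 6 genes (points) with their 95% intervals (lines) in 5 comparisons, on a shared horizontal axis; the interaction is the traction effect in lacZ mice minus that in WT mice. The interaction intervals of *Sox10* (0.42 to 2.72), *Ngfr* (0.22 to 2.01) and *Prx* (0.02 to 1.75) lie above 0, but none passed the test after adjustment over all genes.

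Whether traction acted differently in the genotypes was tested directly, as the interaction. *Sox10*, *Ngfr* and *Prx*, lower under traction in WT mice and higher in lacZ mice, had interaction values of 1.57 (SE 0.52, unadjusted p = 0.0117, adjusted p = 0.548), 1.11 (SE 0.41, unadjusted p = 0.0191, adjusted p = 0.548) and 0.89 (SE 0.39, unadjusted p = 0.0454, adjusted p = 0.555) on the log2 scale. *S100b* had 0.90 (SE 0.60, adjusted p = 0.638), *Mbp* 0.14 and *Pmp22* -0.23. edgeR called 0 of the 6, and 0% of all genes, with 3 of the 6 at an unadjusted p under 0.05, against 8.91% of all genes. DESeq2 and limma-voom called 0, with 3 and 2 at that level. Leaving out each library in turn, the interaction lay between 1.24 and 1.96 for *Sox10*, between 0.87 and 1.36 for *Ngfr* and between 0.66 and 1.22 for *Prx*, and without WT sham library 2 only 1 of the 6 genes had an unadjusted p under 0.05. Averaged over genotypes, the traction effect on these 3 genes was near 0 (log2 fold changes 0.16, -0.10 and 0.00). In this average *Pmp22* was lower under traction by a log2 fold change of -0.30 (SE 0.11, unadjusted p = 0.0226, adjusted p = 0.104) and *S100b* by -0.65 (SE 0.30, adjusted p = 0.171). Here too edgeR called 0 of the 6, against 9.73% of all genes tested. At an unadjusted p under 0.05 was 1 of the 6, against 30.7% of all genes. DESeq2 and limma-voom called 0, with 2 each at that level.

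The 6 genes did not move as a block across the 12 libraries. *Sox10* and *Ngfr* had the closest levels (Pearson r = 0.825, Spearman rho = 0.930 over 12 libraries; r = 0.766 within groups and 0.862 without the 2 libraries farthest from the median). *Ngfr* and *Prx* had r = 0.745 (rho = 0.622), and *Sox10* and *Prx* r = 0.662 (rho = 0.531), which were 0.466 and 0.416 within groups and 0.515 and 0.356 without the 2 farthest libraries. *Mbp*, *Pmp22* and *S100b* had r between -0.393 and 0.414 with every other gene of the 6, though that of *Mbp* with *S100b* was -0.78 without the 2 farthest libraries. These correlations are descriptions, since the 12 points share groups, library composition and depth.

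Among the 13645 other tested genes (13646 for *S100b*) whose mean log2 CPM reached 1, the profile nearest to *Ngfr* was that of *Gldn* (r = 0.918, rho = 0.832, 12 libraries), the gliomedin that myelinating Schwann cells place at nodes of Ranvier, followed by *Fam19a5* (r = 0.880) and *Axin2* (r = 0.880), a target of Wnt signalling. *Sox10* was nearest to *Ptch1* (r = 0.925), the hedgehog receptor, *Ror1* (r = 0.896) and *Dcp1b* (r = 0.889). *Prx* was nearest to *Pgm2l1* (r = 0.855), *Nav2* (r = 0.852) and *Pole* (r = 0.844). The nearest to *Mbp* were *Abcc4* (r = 0.935), *Nfat5* (r = 0.920) and *Il6ra* (r = 0.917). Nearest to *Pmp22* were *C1qtnf7* (r = 0.944), *Anxa3* (r = 0.903) and *Zfp82* (r = 0.888), and nearest to *S100b* were *Tceal1* (r = 0.903), *Chodl* (r = 0.873) and *Zfp661* (r = 0.871). Of these 18 genes, *Gldn* is the only one on a Schwann cell list used here. Without the 2 libraries farthest from the median, r was 0.402 for *Prx* with *Pole*, and was 0.639 or more for each other pair.

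Other myelin genes were read as a list of 18, all tested. Under traction in WT mice 15 were lower and 3 higher, with a median log2 fold change of -0.35. By edgeR 1 of the 18 passed the test, against 9.15% of all genes tested. This was *Egr2*, which encodes the transcription factor that turns on myelin genes. *Egr2* fell from 68.2 ± 19.9 CPM in WT sham to 29.9 ± 9.86 CPM in WT traction (SD, n = 3 each; log2 fold change -1.19, SE 0.28, adjusted p = 0.0338). DESeq2 called 3 of the list, all lower, among them *Egr2*, and limma-voom called 0. Over all genes DESeq2 called 4047 and limma-voom 735. *Mag*, an adhesion protein of the sheath's innermost layer, had a log2 fold change of -0.28 (SE 0.46, adjusted p = 0.718). In lacZ mice 11 of the 18 were higher and 7 lower under traction, with a median of 0.18 and 0 called. An unadjusted p under 0.05 was found for 3, against 8.12% of all genes tested. DESeq2 and limma-voom called 0 there as well. *Mag* had a log2 fold change of 0.16 in lacZ mice and an interaction value of 0.44 (SE 0.66, adjusted p = 0.861). In the interaction 15 of the 18 had values above 0, and 0 were called by edgeR, DESeq2 or limma-voom. By each, 5 had an unadjusted p under 0.05, against 8.91% of all genes by edgeR.

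The list of lineage and repair genes held 22, all tested. Under traction in WT mice 15 were lower and 7 higher, with a median log2 fold change of -0.32. By edgeR 1 was called higher and 1 lower, against 9.15% of all genes tested. DESeq2 called 4 higher and 2 lower, the latter *Adgrg6* and *Cdh19*, and limma-voom called *Ncam1* alone. *Adgrg6*, the adhesion receptor that Schwann cells need to start myelination, fell from 33.8 ± 1.60 to 20.3 ± 5.51 CPM (SD, n = 3 each; log2 fold change -0.73, SE 0.20, adjusted p = 0.0439). *Ncam1*, the adhesion molecule of immature and non-myelinating Schwann cells, rose from 28.3 ± 6.17 to 62.2 ± 18.4 CPM (SD, n = 3 each; log2 fold change 1.14, SE 0.26, adjusted p = 0.0329). *Erbb3*, the receptor through which neuregulin keeps these cells alive, and *Cdh19*, a cadherin of Schwann cell precursors, had -0.72 (SE 0.27, adjusted p = 0.0934) and -1.20 (SE 0.40, adjusted p = 0.0745). *Foxd3*, *Scn7a* and *Gap43* had log2 fold changes of -0.19, -0.27 and -0.30 with SEs of 0.46 to 0.48. In lacZ mice 17 of the 22 were higher and 5 lower, with a median of 0.31. edgeR and DESeq2 called 0 there, while limma-voom called *Ncam1*. An unadjusted p under 0.05 was found for 5 by edgeR, against 8.12% of all genes, and for 7 by DESeq2. The interaction of *Cdh19* was 1.99 (SE 0.56, unadjusted p = 0.00455, adjusted p = 0.548). Averaged over genotypes, *Ncam1* (1.09, adjusted p = 0.0203) and *Gdnf*, a growth factor of repair Schwann cells (1.09, adjusted p = 0.0381), rose under traction, and *Egr2* fell (-0.97, adjusted p = 0.0249). By edgeR these were 2 of the 22 lineage and repair genes and 1 of the 18 myelin genes, against 9.73% of all genes tested. Of the 12 fits that leave out a library, the calls in WT mice held in 7 for *Egr2*, 2 for *Adgrg6* and 7 for *Ncam1*. The averaged calls held in 9 for *Ncam1*, 2 for *Gdnf* and 7 for *Egr2*. In every such fit the direction was kept. Without WT sham library 1 or 2 edgeR called 0 of all genes in WT mice, and without lacZ sham library 2 it called 0 in the average, so these calls were lost there too.

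**Figure D3:**
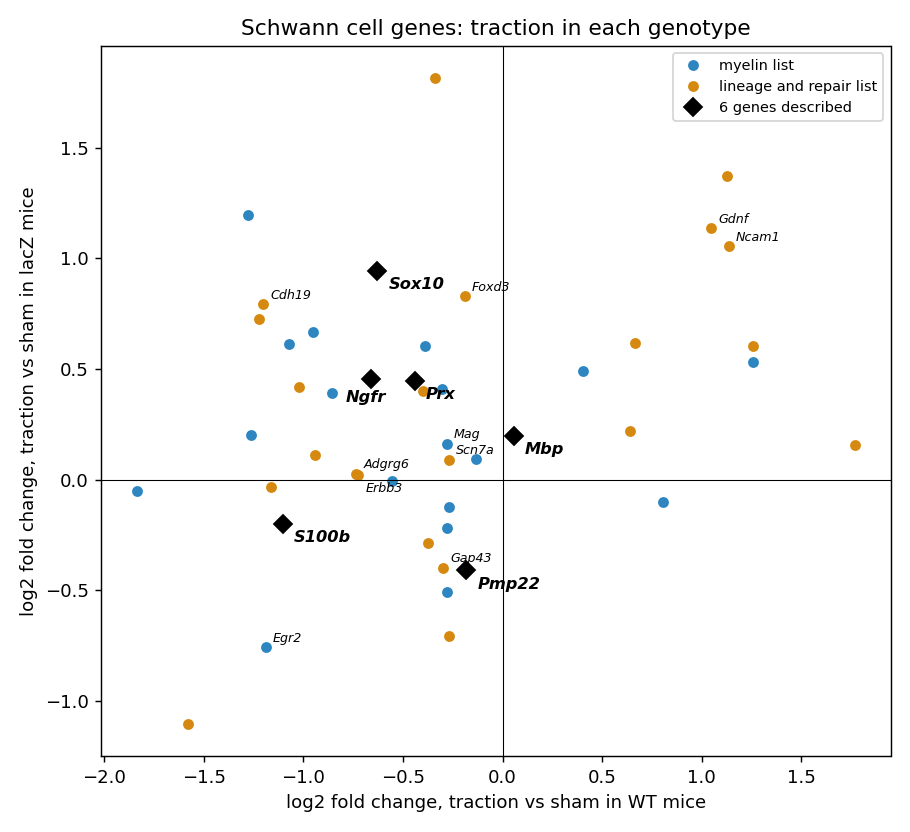
Log2 fold change under traction in WT mice (horizontal axis) against that in lacZ mice (vertical axis) for the 6 genes (diamonds), 18 other myelin genes and 22 lineage and repair genes (circles). *Sox10*, *Ngfr* and *Prx* lie in the upper left with *Cdh19*; *Egr2*, *S100b* and *Pmp22* lie at lower left; *Ncam1* and *Gdnf* lie at upper right.

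The ligands and partner proteins of the receptor encoded by *Ngfr* were read as a list of 15. By edgeR 3 passed the test under traction in WT mice, against 9.15% of all genes tested. *Sorcs2*, a co-receptor for pro-neurotrophins, rose by 1.61 on the log2 scale (SE 0.38, adjusted p = 0.0349) and *Maged1*, which binds the receptor inside the cell, rose by 0.92 (SE 0.23, adjusted p = 0.0381). *Ntrk3*, the receptor for neurotrophin-3, fell by 2.03 (SE 0.53, adjusted p = 0.0406), from 5.21 ± 2.70 to 1.27 ± 0.646 CPM (SD, n = 3 each). DESeq2 called 2 of the list higher and 2 lower, among them these 3 genes, whereas limma-voom called *Maged1* alone. Averaged over genotypes, edgeR called 1 of the 15 higher and 1 lower, against 9.73% of all genes tested. The gene called higher was *Sorcs2*, which rose by 1.21 (adjusted p = 0.0283). Of the 12 fits that leave out a library, the calls in WT mice held in 8 for *Sorcs2*, 6 for *Maged1* and 3 for *Ntrk3*, and the averaged call of *Sorcs2* in 6. As for the Schwann cell lists, the calls in WT mice were lost without WT sham library 1 or 2, and the averaged call without lacZ sham library 2.

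Neuregulin-1, encoded by *Nrg1*, is the axonal signal that sets Schwann cell survival and myelin thickness, and Schwann cells in repair make it too. *Nrg1* was at 2.87, 5.005 and 5.86 CPM in WT sham and at 45.8, 14.2 and 23.5 CPM in WT traction, and at 11.7, 7.47 and 8.86 CPM in lacZ sham and 8.01, 14.3 and 9.33 CPM in lacZ traction. All WT traction libraries but library 2 were above every library of the lacZ groups. It rose under traction in WT mice by 2.60 on the log2 scale (SE 0.44, adjusted p = 0.0252), a call lost without WT sham library 1 or 2 (lowest value 2.02, without 1 library), with 0.18 in lacZ mice (SE 0.41, adjusted p = 0.918) and an interaction of -2.42 (SE 0.59, adjusted p = 0.548). DESeq2 called *Nrg1* lower in the interaction and between the genotypes under traction, where edgeR gave -1.40 (SE 0.42, adjusted p = 0.0983). Of the 5 tested genes of neuregulins and their receptors, edgeR and limma-voom called *Nrg1* alone under traction in WT mice, and DESeq2 called *Nrg1* and *Nrg2*, the latter lower (edgeR log2 fold change -1.08, SE 0.41, adjusted p = 0.102). Over all 18853 genes tested edgeR called 9.15% in this comparison, DESeq2 4047 genes and limma-voom 735.

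Most axon genes were low. *Tubb3*, a tubulin of neurons, was the highest, with group means of 20.1 to 21.9 CPM, and *Stmn2*, a microtubule regulator of growing axons, had means of 3.62 to 5.23 CPM. Neither moved with traction by more than its SE in WT or lacZ mice. Of 19 listed, 12 passed the filter on low counts, and *Prph*, *Nefm*, *Stmn3*, *Snap25*, *Scn9a*, *Scn10a* and *Elavl4* did not. *Prph*, the intermediate filament of peripheral neurons, was at 0.0434 to 0.333 CPM in every library. *Nefl*, the light neurofilament chain, ranged from 0.0442 to 6.22 CPM, and its SD was larger than its mean in WT sham (2.47 ± 2.73 CPM), lacZ sham (2.70 ± 3.07 CPM) and WT traction (0.702 ± 0.997 CPM; SD, n = 3 each). Its log2 fold change under traction was -1.80 in WT mice (SE 1.28, adjusted p = 0.361) and -3.33 in lacZ mice (SE 1.39, adjusted p = 0.599). Within each genotype edgeR called 0 of the 12 under traction. At an unadjusted p under 0.05 were 3 in WT mice and 2 in lacZ mice, against 31.4% and 8.12% of all genes. In WT mice DESeq2 called 3 and limma-voom 0, and in lacZ mice both called 0. Averaged over genotypes, edgeR called 2 of the 12, both lower, against 9.73% of all genes tested. Among them *Trpv1*, the heat and capsaicin channel of pain fibres, fell by 0.94 (SE 0.26, adjusted p = 0.0458), a call that held in 1 of the 12 fits that leave out a library.

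Markers of other cell types differed between the same libraries. The summed level of 11 melanocyte markers, whose cells also express *Sox10* and *S100b*, was 303 to 1047 CPM in WT sham, 135 to 284 in WT traction, 78.9 to 561 in lacZ sham and 243 to 459 in lacZ traction. All 11 were lower under traction in WT mice (median log2 fold change -1.85, with 2 called by edgeR, 3 by DESeq2 and 0 by limma-voom) and 8 of 11 were higher in lacZ mice (median 0.03, with 0 called by edgeR, DESeq2 or limma-voom and 0 at an unadjusted p under 0.05 by each). The highest sum was in WT sham library 2, where *Sox10*, *Ngfr* and *Prx* were highest. The next highest was in lacZ sham library 2 (561 CPM), with *Sox10* at 3.30 CPM. In lacZ traction library 3 the sum was 243 CPM and *Sox10* was at 6.75 CPM. Hair follicle markers, 13 genes, were also lower in WT traction (2554 to 4381 CPM) than in WT sham (8461 to 16290 CPM), with 4 called by edgeR, 13 by DESeq2 and 0 by limma-voom, and all 13 had interaction values above 0. For traction in WT mice edgeR called 9.15% of all genes tested, DESeq2 4047 of 18853 and limma-voom 735. In lacZ mice edgeR called 0%, and 8.12% had an unadjusted p under 0.05. The part of melanocytes and hair follicles in the *Sox10*, *Ngfr* and *Prx* values was not tested.

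For *S100b*, 12 adipocyte markers summed to 1602 to 1977 CPM in WT sham, 331 to 1455 in WT traction, 564 to 7155 in lacZ sham and 393 to 4107 in lacZ traction. Their highest sum was in lacZ sham library 1, where *S100b* was highest. Other libraries did not match in this way. The next highest sum was in lacZ traction library 3 (4107 CPM), with *S100b* at 2.06 CPM. *S100b* was next highest in lacZ traction library 1 (3.20 CPM), where the sum was 462 CPM. WT traction library 1, the lowest for *S100b*, had the highest sum of 11 neutrophil markers (7550 CPM, against 119 to 758 in all other libraries). For *Mbp*, the sum of 7 T cell markers was highest in WT traction library 1 (92.5 CPM) and WT sham library 1 (49.1 CPM), the same 2 libraries in which *Mbp* was highest, and 12.1 to 34.5 CPM in all others. For *Pmp22*, the sum of 10 fibroblast markers was highest in the WT traction group (47920 to 124100 CPM), where its mean was lowest. Skeletal muscle markers summed to 1649 to 17740 CPM in WT sham and 426 to 2617 in WT traction. All 12 were lower there (median log2 fold change -2.91, with 0 called by edgeR, 9 by DESeq2 and 0 by limma-voom, and 12 at an unadjusted p under 0.05 by each), and all 12 had interaction values above 0. Endothelial markers moved the other way, from 437 to 628 CPM in WT sham to 1102 to 1292 in WT traction, with 8 of 11 called higher by edgeR. Of all genes tested for traction in WT mice, edgeR called 9.15%, and 31.4% had an unadjusted p under 0.05. DESeq2 called 4047 of 18853 there and limma-voom 735. The sums of epidermal and chondrocyte markers were 11210 to 41770 and 1.78 to 6.27 CPM over all libraries. The part of these cells in the results was not tested.

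**Figure D4:**
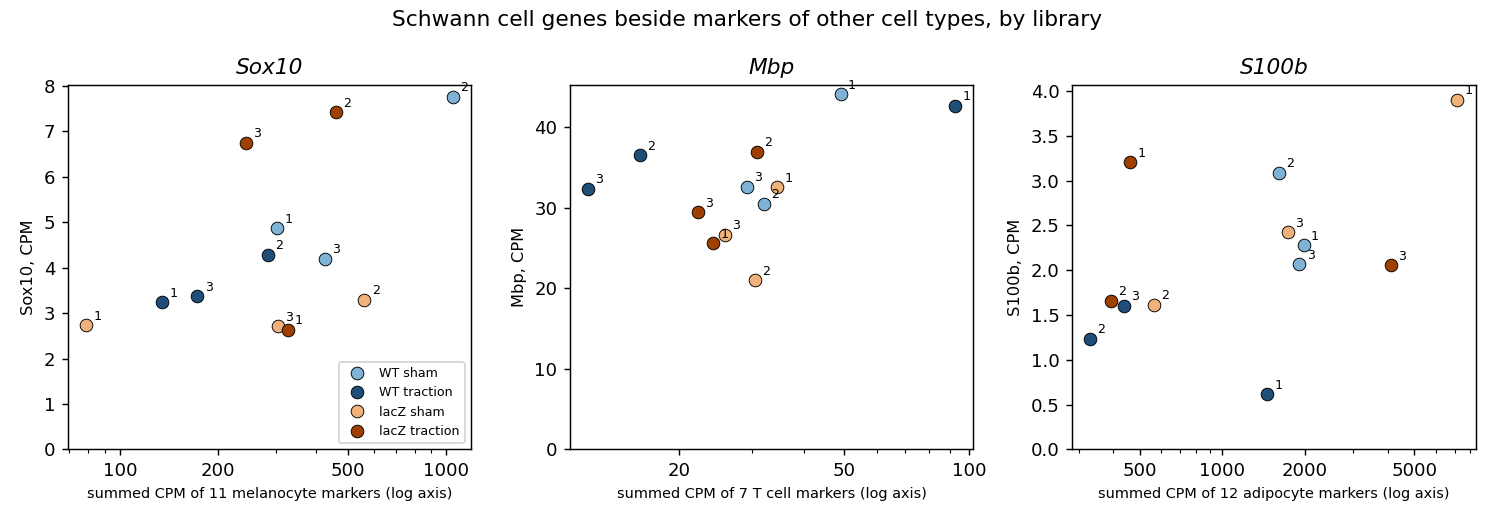
*Sox10*, *Mbp* and *S100b* (vertical axes, CPM) against the summed level of melanocyte, T cell and adipocyte markers (horizontal axes, CPM on a log scale) in the 12 libraries, coloured by group. WT sham library 2 is highest for *Sox10* and for melanocyte markers, the 2 libraries with the highest *Mbp* have the highest T cell marker sums, and lacZ sham library 1 is highest for *S100b* and for adipocyte markers. Other libraries do not match: lacZ sham library 2 is next for melanocyte markers with *Sox10* at 3.30 CPM, and lacZ traction library 3 is next for adipocyte markers with *S100b* at 2.06 CPM.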

How the data were processed

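RNA-seq of 12 mouse scars was analysed, 3 scars from 3 mice in each of 4 groups. The authors extracted RNA from a part of each scar, prepared stranded mRNA libraries, read 150-base pairs, trimmed them with fastp 0.20.0, aligned them to GRCm38 with HISAT2 2.1.0 and counted reads per gene with featureCounts 2.0.0. The counts were deposited as whole numbers without normalization. Which annotation was used, whether strand was used in counting and how multiply aligned reads were treated are not given in the sources used here. Of the 35976 genes listed, 4 have repeated symbols and were used as listed. Library totals were 41536788 to 64644293 counts, and variation between mice of a group (edgeR's biological coefficient of variation) was 34.2%.

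After edgeR's filterByExpr, TMM factors were computed and edgeR 4.0.16 (R 4.3.3) was run with robust quasi-likelihood on 1 model of the 4 groups (8 residual degrees of freedom). All tests were two-sided, and an adjusted p under 0.05 (Benjamini-Hochberg, 18853 genes) was taken as passing. The script was tested on simulated data. Alternatives were 2 other filters, DESeq2's size factors or upper quartile scaling in edgeR, DESeq2 1.42.0, limma-voom 3.58.1 with sample weights, a block for the replicate number, only the groups compared, and leaving out each library. Exonic lengths came from GENCODE vM21 and promoters from RefSeq. The file lists *Bex3* as *Ngfrap1*. The 6 genes and all lists were chosen with earlier results of these data known. Beside the 6 genes, the text names list genes that passed a test, 14 Schwann cell and axon genes whatever their values, and for each of the 6 the 3 genes with the highest r, except that some list genes are not reported here.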

Additional observations from a re-analysis of the deposited data

How the results depend on the processing

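Under all 20 alternatives 0 of the 6 genes passed the test in any comparison, and the smallest adjusted p of any of them was 0.0555 (*Sox10*, traction in lacZ mice, limma-voom). Of 708 recomputed values of the 6 genes 685 kept their direction and 23 turned, all from log2 values of 0.20 or less in size. The 210 recomputed list medians moved by less than the median SE of the list's genes. The averaged traction value of *Prx* was -0.0152 with at least 10 counts in every library, -0.0726 with upper quartile scaling and -0.0782 with limma-voom. Upper quartile scaling gave -0.0581 for *Mbp* under traction in WT mice, and limma-voom gave -0.0236 for *S100b* between sham groups and 0.013 for the average of *Ngfr*. Leaving out 1 library, the ranges that crossed 0 were -0.07 to 0.23 (*Mbp*, traction in WT), -0.47 to 0.22 (*S100b*, traction in lacZ), -0.32 to 0.34 (*S100b*, sham groups), -0.0496 to 0.17, -0.0568 to 0.39 and -0.0801 to 0.25 (*Pmp22*, *Ngfr* and *Prx*, traction groups), -0.034 to 0.35 (*Mbp*, interaction), and -0.21 to 0.0177 and -0.10 to 0.16 (*Ngfr* and *Prx*, average). The cause was not tested.

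Counts over all genes depended on the tool. Traction in WT mice gave 1725 genes with edgeR, 1011 with every gene that had a count, 735 with limma-voom, 4047 with DESeq2 and 0 with only the groups compared, whose fit has fewer libraries. DESeq2 called 28 genes for traction in lacZ mice, 43 and 2334 between genotypes in sham and traction, 69 in the interaction and 3850 in the average, and limma-voom called 377 for traction in lacZ mice. Single libraries decided these counts too. Leaving out each library gave 0 (WT sham library 1 or 2) to 2861 genes (WT traction library 2) for traction in WT mice, 3 to 1421 (WT traction library 2) between genotypes under traction against 20 with all libraries, and 0 (lacZ sham library 2) to 3422 (lacZ traction library 1) in the average against 1835. Upper quartile scaling moved the median of all genes to -0.12 (traction in WT) and 0.14 (genotypes under traction).

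Libraries with the same number in different groups came from different mice. Correlations of their deviations from the group means were -0.467 to 0.367. Differently numbered libraries were not compared, so these values cannot show whether the numbers pair the libraries. With the replicate block 0 of the 6 genes were called in every comparison, and 1467 of all genes for traction in WT mice.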

Other observations

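Between the genotypes under traction, 14 of the 18 other myelin genes and 15 of the 22 lineage and repair genes were higher in lacZ mice. Their median log2 fold changes were 0.39 and 0.32, and 0 were called by edgeR or limma-voom. By edgeR 3 and 5 had an unadjusted p under 0.05, against 26.1% of all genes tested, and by limma-voom 2 and 5. DESeq2 called 4 genes of these lists, all higher in lacZ mice, among them *Gjc3*, *Cdh19* and *Adgrg6*. In the same comparison it called 2334 of all 18853 genes tested. *Cdh19* was at 1.95, 3.89 and 1.15 CPM in WT traction and at 4.19, 6.01 and 8.09 CPM in lacZ traction (log2 fold change 1.39, SE 0.40, adjusted p = 0.0959 by edgeR). Its groups did not overlap, nor did those of 26.6% of all genes tested. *Adgrg6* had a mean of 20.3 ± 5.51 CPM in WT traction and 32.3 ± 5.30 CPM in lacZ traction (SD, n = 3 each; log2 fold change 0.67, SE 0.20, adjusted p = 0.0971). *Gjc3*, a gap junction protein of Schwann cells, was at 0.285, 1.10 and 0.411 CPM in WT traction and at 0.961, 2.00 and 1.66 CPM in lacZ traction, with overlap. *Sox10*, at 3.24 to 4.28 and 2.64 to 7.42 CPM in these groups, overlapped as well.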
